A study of Mus musculus with 32 samples.

Results

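The Tex (testis expressed) and Spata (spermatogenesis associated) genes of the mouse were followed through the first wave of spermatogenesis. Members were the protein-coding genes of the GENCODE M21 annotation whose symbol is Tex or Spata followed by a digit and which have a row in the juvenile gene table, leaving out Tex11, Tex12 and Spata22. Of 67 such symbols, 39 genes were members, 18 Tex and 21 Spata, of 20368 genes in the table. The samples were poly-A RNA-seq libraries of germ cells from C57BL/6J male mice, all untreated, with no mutant allele named. They came from 28 single juvenile mice, 3 at 8 days post-partum (dpp) and 5 each at 10, 12, 14, 16 and 18 dpp. Another 4 samples were adult pachytene and diplotene spermatocytes, enriched by sedimentation at unit gravity (STA-PUT), and each was a pool of 6 males aged 9 weeks. Every juvenile sample is a mixture of germ-cell stages, so that a gene's level moves with the share of the cells that express it as well as with the RNA per cell, and fewer cells of a type and less RNA per cell cannot be told apart. Levels are TPM (transcript levels as a share of the library's total, corrected for transcript length). TPM keep no read counts, the depth is therefore unknown, and all errors below are the spread between samples.

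Tex and Spata are naming series and not families by descent. Genes were given these names because their transcripts were found in testis or during sperm formation, and their products range from general enzymes of the endoplasmic reticulum to parts of the acrosome, the sperm neck and the sperm tail. In the first wave, the leading germ cells enter meiosis only in partial synchrony, and later waves keep starting behind them. The paper reports that spermatogonia were the majority of the germ cells at every age. The leading cells pass leptonema and zygonema and reach pachynema, the long stage at which paired chromosomes are held by the synaptonemal complex. Many genes for the later sperm are first transcribed at pachynema. The X and Y chromosomes are silenced at that stage.

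Sums of germ-cell markers followed the order of 8 dpp, 18 dpp and adult, though not every marker did. The summed level of 6 late pachytene markers, Ldhc and Ybx2 among them, was 28.8 to 41.5 TPM at 8 dpp, 2739 to 4986 TPM at 18 dpp and 10525 to 10755 TPM in the adult samples, while that of 6 spermatogonial markers was 497 to 587, 205 to 282 and 8.48 to 10.8 TPM. Hist1h1t, another of the late pachytene markers, was not in the table, with a mean of 0.398 TPM at 18 dpp and 3.4 TPM in adult. The 5 early meiotic markers summed to 377 to 522, 1642 to 1932 and 2236 to 2390 TPM at 8 dpp, 18 dpp and in adult. Of these, Sycp1, Sycp3, Hormad1 and Dmc1 had lower means in adult than at 18 dpp, and Mael a higher one. Of 6 spermatid markers none reached the table, and their sum stayed at or below 7.19 TPM in every juvenile mouse but was 862 to 1166 TPM in the adult samples. Sertoli-cell markers, 7 genes led by Clu, summed to 6551 to 7422 TPM at 8 dpp, 3154 to 4105 TPM at 18 dpp and 287 to 423 TPM in the adult samples, and 6 of the 7 were lower at 18 than at 8 dpp. Leydig-cell markers summed to 173 to 196 TPM at 8 dpp and 166 to 465 TPM at 18 dpp, peritubular markers to 923 to 1016 and 424 to 876 TPM, macrophage markers to 25.3 to 32.2 and 35.5 to 76.3 TPM, and red-cell markers to 126 to 418 and 148 to 197 TPM. In the adult samples these sums were 206 to 269, 3.08 to 6.15, 3.32 to 4.35 and 4.73 to 8.26 TPM, and Hbb-bs, a defining red-cell gene, was at 0. Their part in the results for the members was not tested.

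At 18 dpp the mice numbered 4 and 5 stood apart from mice 1 to 3. Their late pachytene markers summed to 2915 and 2739 TPM against 4981, 4986 and 4927 TPM, their spermatogonial markers to 275 and 282 against 210.0, 205 and 218 TPM, and their peritubular markers to 849 and 876 against 474, 424 and 462 TPM. The labels name no batch. The differences and counts that rest on the 18 dpp mice are given with these animals. Many are given again without them after the description of the 5 mice or beside the result. The others are given with all mice only.

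For the 4 members with a promoter entry that rose most, the RefSeq promoter sequences (GRCm38.p6, the build of the files) are shown first, together with those of Tex19.1 and Tex19.2, neighbours that moved in opposite directions. Each holds 250 bases before and 50 bases from the transcription start and is written 5′ to 3′ on the gene's strand. A promoter entry was found for 35 of 39 members, and Tex15, Tex22, Spata24 and Spata2l had none. Capitals mark matches on either strand to a MYB-type motif (TAACNG or CAACNG), to the X-box half-site GTTGCC or to the cyclic AMP response element TGACGTCA.
Spata4, chr8:54600531-54600830, plus strand: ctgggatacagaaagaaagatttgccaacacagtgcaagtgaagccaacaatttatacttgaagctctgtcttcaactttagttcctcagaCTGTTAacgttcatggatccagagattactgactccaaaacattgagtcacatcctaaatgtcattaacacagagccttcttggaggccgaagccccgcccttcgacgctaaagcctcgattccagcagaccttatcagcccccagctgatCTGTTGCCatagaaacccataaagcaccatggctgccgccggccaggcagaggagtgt
Spata16, chr3:26637381-26637680, plus strand: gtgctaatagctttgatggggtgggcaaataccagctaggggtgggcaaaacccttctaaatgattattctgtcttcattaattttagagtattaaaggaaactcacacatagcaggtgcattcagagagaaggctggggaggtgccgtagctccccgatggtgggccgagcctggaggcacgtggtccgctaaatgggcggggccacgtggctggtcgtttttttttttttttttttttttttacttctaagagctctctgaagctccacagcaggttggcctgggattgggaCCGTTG
Spata33, chr8:123212608-123212907, plus strand: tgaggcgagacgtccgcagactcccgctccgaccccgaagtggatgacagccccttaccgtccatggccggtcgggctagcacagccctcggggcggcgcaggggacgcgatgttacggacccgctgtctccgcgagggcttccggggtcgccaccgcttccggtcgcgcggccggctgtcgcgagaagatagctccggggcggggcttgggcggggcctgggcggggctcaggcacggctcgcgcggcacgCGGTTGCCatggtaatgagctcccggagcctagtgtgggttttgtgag
Spata17, chr1:187215397-187215696, minus strand: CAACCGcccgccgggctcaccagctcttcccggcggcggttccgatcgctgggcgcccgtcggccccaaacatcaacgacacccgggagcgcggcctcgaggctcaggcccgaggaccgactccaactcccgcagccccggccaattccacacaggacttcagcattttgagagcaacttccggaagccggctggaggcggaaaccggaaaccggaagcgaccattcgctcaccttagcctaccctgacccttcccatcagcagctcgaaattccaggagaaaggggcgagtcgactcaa
Tex19.1, chr11:121145893-121146192, plus strand: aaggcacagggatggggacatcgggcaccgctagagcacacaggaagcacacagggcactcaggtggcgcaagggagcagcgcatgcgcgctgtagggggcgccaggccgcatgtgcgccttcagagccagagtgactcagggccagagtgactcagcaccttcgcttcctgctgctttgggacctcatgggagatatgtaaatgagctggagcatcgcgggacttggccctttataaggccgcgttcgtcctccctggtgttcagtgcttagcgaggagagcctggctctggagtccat
Tex19.2, chr11:121118628-121118927, minus strand: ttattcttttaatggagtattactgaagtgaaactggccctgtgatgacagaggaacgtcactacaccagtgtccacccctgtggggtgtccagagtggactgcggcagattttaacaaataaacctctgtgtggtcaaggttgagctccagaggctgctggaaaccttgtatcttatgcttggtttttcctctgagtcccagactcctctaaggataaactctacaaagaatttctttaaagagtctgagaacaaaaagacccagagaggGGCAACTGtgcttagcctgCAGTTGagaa

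These 3 motifs and 4 others were searched after the members' values were known, and their counts are a description with no test. Of 19 promoters of members at least 1 higher on the log2 scale at 18 than at 8 dpp, 16 held the MYB-type motif, against 49.7% of all 32817 promoters of this length, and 7 held the X-box half-site, against 12.5%. Among these 19, the entries farthest from the annotated gene start were those of Tex101 (4625 bases), Spata31d1a (4133), Spata48 (1650) and Spata20 (869). Of these, Tex101, Spata31d1a and Spata20 held the MYB-type motif and Spata31d1a the half-site. The entry of Tex16, not among the 19, lay 82513 bases away and held the MYB-type motif. Such distant entries may not be the promoters in use. Among the 6 promoters of members that fell, 2 held the MYB-type motif and 0 the X-box half-site. In Spata4 and Spata33 both motifs overlap at the start site, the half-site beginning at position -6 in Spata4 and at position 5 in Spata33, counted from 1 at the first transcribed base. They also share bases in Spata45, Tex9 and Tex19.2, so that the counts of these motifs are not separate observations. The response element was in 0 of the 19 promoters (1.79% of all), its half-site TGACG in 4 (20.8%), the E-box CACGTG in 2 (7.15%), TATAAA in 2 (13.6%) and CCAAT in 7 (37.4%). The promoters of Tex19.1 and Tex19.2 held 144 identical bases among their aligned ones, an identity of 51.4% of the bases aligned without a gap. A match to these letters is not a binding site.

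The first comparison asked how the members' levels differed between the youngest and oldest juvenile mice. Of the 39 members, 23 were higher and 8 lower at 18 than at 8 dpp (limma on log2(TPM + 1) over all 20368 genes, Benjamini-Hochberg adjusted p under 0.05), where 31.8% of all genes were higher and 36.3% lower. The differences are on the log2(TPM + 1) scale, which understates the change of low genes. The median difference of the members was 1.10, against -0.0939 over all genes, and 1.92 against -0.114 with a pseudocount of 0.1 in place of 1. By size, 21 members were at least 1 higher on the log2 scale (17.8% of all genes) and 1 was at least 1 lower (10.3%). The member at least 1 lower was Spata2l. With no overlap between the mice of both ages, 19 members were higher (29% of all genes) and 6 lower (32%). The table lists a gene once it reaches 3 TPM in at least 1 mouse, so a member that got there at 1 age alone was bound to be high at that age, and these counts say nothing of the families' genes outside the table. That was so for 10 members at 18 dpp, 8 of which were called higher. Of the 23 members at 3 TPM or more in a mouse of 8 dpp, 10 were higher and 8 lower. These 23 were thus nearer to the 31.8% and 36.3% of all genes than the 39 members were. The share among all genes at that level at 8 dpp was not counted. Without mice 4 and 5 of 18 dpp, 25 members were higher (31.7% of all genes) and 7 lower (38.8%).

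**Figure D1:**
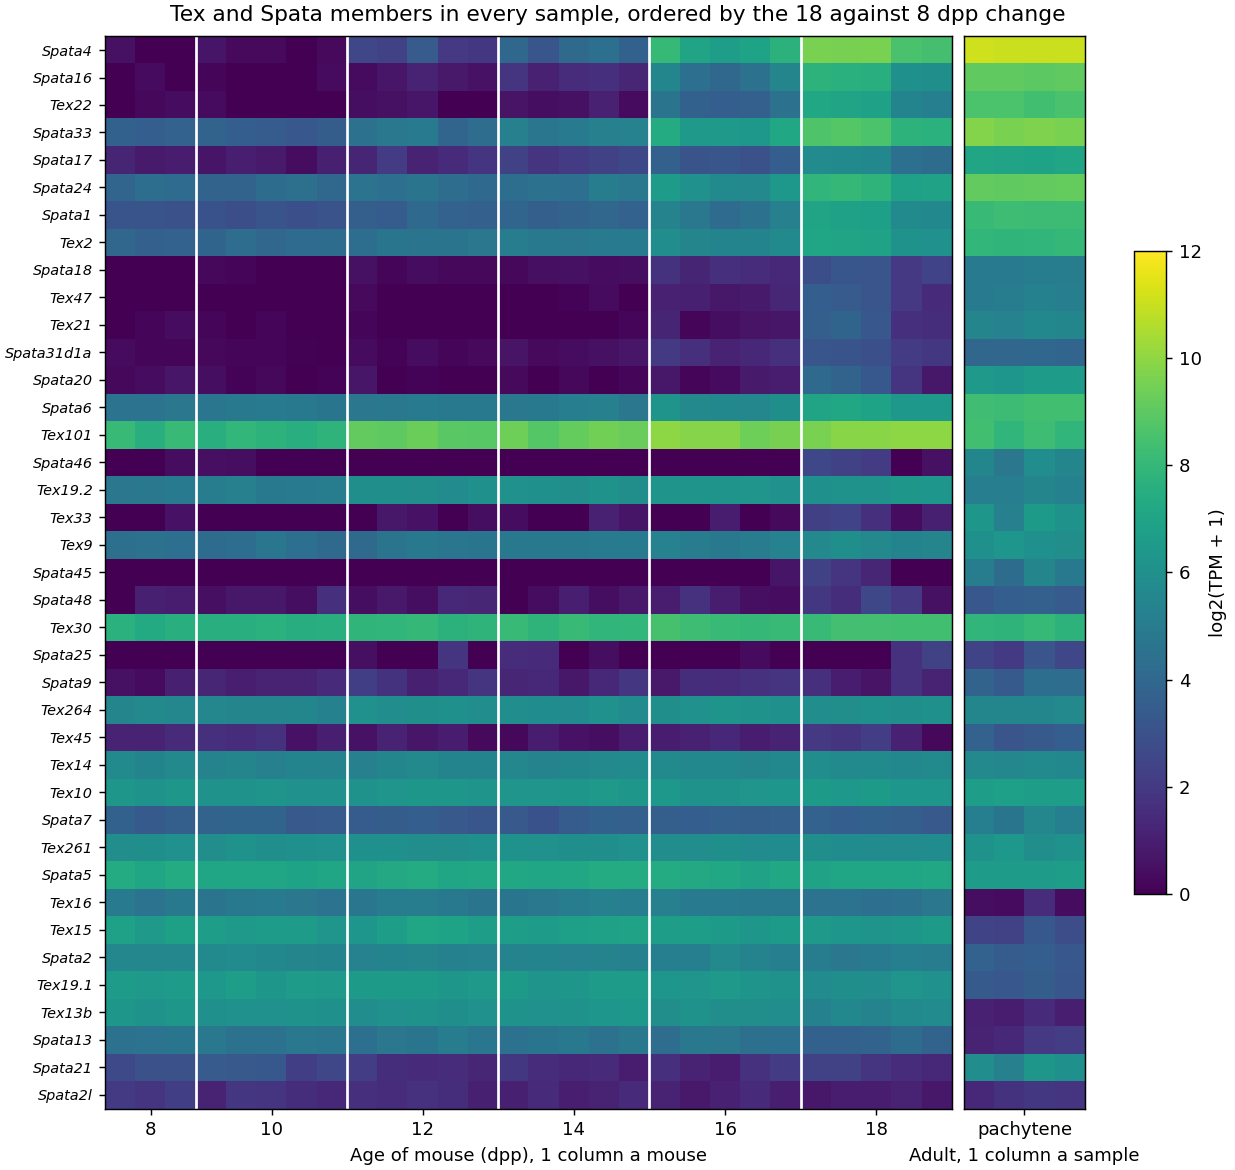
Level of each of the 39 members as log2(TPM + 1) in each of the 28 juvenile mice (left, grouped by age in dpp, 1 column a mouse) and 4 adult pachytene samples (right), with genes ordered by the 18 against 8 dpp difference. The upper rows brighten from 16 dpp on and are brightest in the adult samples, Tex101 is bright throughout, and Tex13b, Tex15, Tex16 and Tex19.1 in the lower rows darken in the adult samples.

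The members assigned from general knowledge to sperm structure or fertilisation were called higher in 9 of 9 cases, where 31.8% of all genes were, with a median difference of 2.74. Of the 9, Spata18, Spata46 and Tex33 were in the table only through 18 dpp and Spata16, Tex22 and Spata31d1a only through 16 and 18 dpp, so that for these 6 a high late level was set by the filter. Spata16, a Golgi and acrosomal protein whose loss causes round-headed sperm, stood at 0, 0.29 and 0 TPM at 8 dpp and at 219, 196, 190.0, 63.9 and 62.1 TPM at 18 dpp. Every 18 dpp mouse lay above every younger one, and the difference was 6.87 ± 0.36 (SE, adjusted p = 4.51e-15). The adult samples held 529, 533, 499.5 and 531 TPM.

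Spata33, which links the sperm calcineurin phosphatase to mitochondria, rose from 12.2, 11 and 12.8 TPM at 8 dpp to 411, 456, 385, 213 and 205 TPM at 18 dpp, a difference of 4.61 ± 0.25 (SE, adjusted p = 1.19e-14). No 18 dpp mouse overlapped an 8 dpp mouse, and the adult samples were higher again, at 768 to 864 TPM. Spata33 overlaps the protein-coding model Gm20388 on the same strand, so that reads may have been split between them. Tex22, found at the acrosome, was at 0, 0.21 and 0.32 TPM at 8 dpp and 148, 129.7, 115, 42.3 and 34.8 TPM at 18 dpp, a difference of 6.12 ± 0.35 (SE, adjusted p = 2.63e-14). Its adult level was 372 ± 27.4 TPM (SD, n = 4), and every juvenile mouse was below it.

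Spata6, needed for the connecting piece between sperm head and tail, was already at 23.1, 22.9 and 26.4 TPM at 8 dpp, stayed between 22.9 and 36.5 TPM up to 14 dpp, and was at 128, 139, 125, 84.4 and 83.5 TPM at 18 dpp, a difference of 2.14 ± 0.15 (SE, adjusted p = 2.4e-12). Spata17, an IQ-motif calmodulin-binding protein, went from 1.34, 0.85 and 0.89 to 54.3, 50.7, 47.7, 20.1 and 18 TPM, a difference of 4.14 ± 0.29 (SE, adjusted p = 1.83e-12). Both genes were higher in every 18 dpp mouse than in any 8 dpp mouse. Spata18, a mitochondrial quality-control protein also called Mieap, was listed at 0 in the 3 mice of 8 dpp and at 6.42, 8.3, 8.03, 3.01 and 4.39 TPM at 18 dpp (adjusted p = 6.45e-12). Spata31d1a, one of a cluster of like genes that may share reads, reached 8.24, 7.63, 6.71, 3.36 and 2.89 TPM from 0.27, 0.12 and 0.16 TPM (adjusted p = 7.62e-10).

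Both remaining genes of this group came up only in part of the mice. Spata46, a protein of the sperm head, was at 5.09, 4.01, 3.36, 0 and 0.44 TPM at 18 dpp and at or below 0.41 TPM in every younger mouse, with a difference of 1.39 ± 0.37 (SE, adjusted p = 0.00182) that lost its call when only these 2 ages were fitted (adjusted p = 0.0785). Tex33 was at 3.84, 4.37, 2.11, 0.32 and 1.07 TPM at 18 dpp, with a difference of 1.36 ± 0.35 (SE, adjusted p = 0.00126). For each of them mice 1 to 3 carried the rise, and mice 4 and 5 lay among or close to the younger mice. In the adult samples Spata46 held 45, 25.8, 57.8 and 43 TPM and Tex33 80.2, 36.1, 91.5 and 70 TPM.

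Among the 16 members to which no role was given, 10 were higher at 18 than at 8 dpp (31.8% of all genes), 2 lower (36.3%) and 4 without a call. This group held the largest difference of the members. Of the 10, Tex47, Tex21, Spata20, Spata45 and Spata48 were in the table only through 18 dpp, so that a rise to this age was set by the filter. Spata4 was at 0.45, 0 and 0 TPM at 8 dpp, 0.58, 0.25, 0.24, 0 and 0.25 TPM at 10 dpp and 4.94, 4.15, 10, 2.95 and 2.86 TPM at 12 dpp. It then stood at 14.9, 8.12, 16.6, 19.9 and 12.1 TPM at 14 dpp, 263, 128, 103, 122 and 208 TPM at 16 dpp and 778, 749, 756, 373 and 349 TPM at 18 dpp. From 12 dpp on, the lowest mouse of each age was above the highest of the age before except between 12 and 14 dpp, and the 18 against 8 dpp difference was 8.97 ± 0.34 (SE, adjusted p = 2.64e-17), the largest of the 39 members. Without mice 4 and 5 of 18 dpp it was 9.40.

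Spata24 rose from 16.9 ± 2.49 TPM (SD, n = 3) at 8 dpp to 239, 249.8, 221, 115 and 118 TPM at 18 dpp, a difference of 3.34 ± 0.24 (SE, adjusted p = 2.91e-12). Spata1 rose from 7.76, 7.78 and 6.89 to 126, 114, 109.8, 51.9 and 47.4 TPM, a difference of 3.31 ± 0.26 (SE, adjusted p = 9.52e-12). Both were higher in every 18 dpp mouse than in any younger mouse. Tex47 was listed at 0 at 8 dpp and 10 dpp and stood at 11, 9.78, 7.99, 3.04 and 1.7 TPM at 18 dpp (adjusted p = 1.39e-08). Tex30 was high throughout, at 204, 161 and 189 TPM at 8 dpp and 284, 338, 336, 334 and 329 TPM at 18 dpp, a difference of 0.81 ± 0.09 (SE, adjusted p = 1.08e-08). The other risers without a given role were Tex21, Spata20, Tex9, Spata45 and Spata48, with differences of 2.60, 2.32, 1.2, 1.10 and 1.05 and adjusted p values of 5.3e-07, 5.1e-05, 1.36e-08, 0.00712 and 0.0169 in limma. Spata45 was at 0 in both mice 4 and 5 of 18 dpp.

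**Figure D2:**
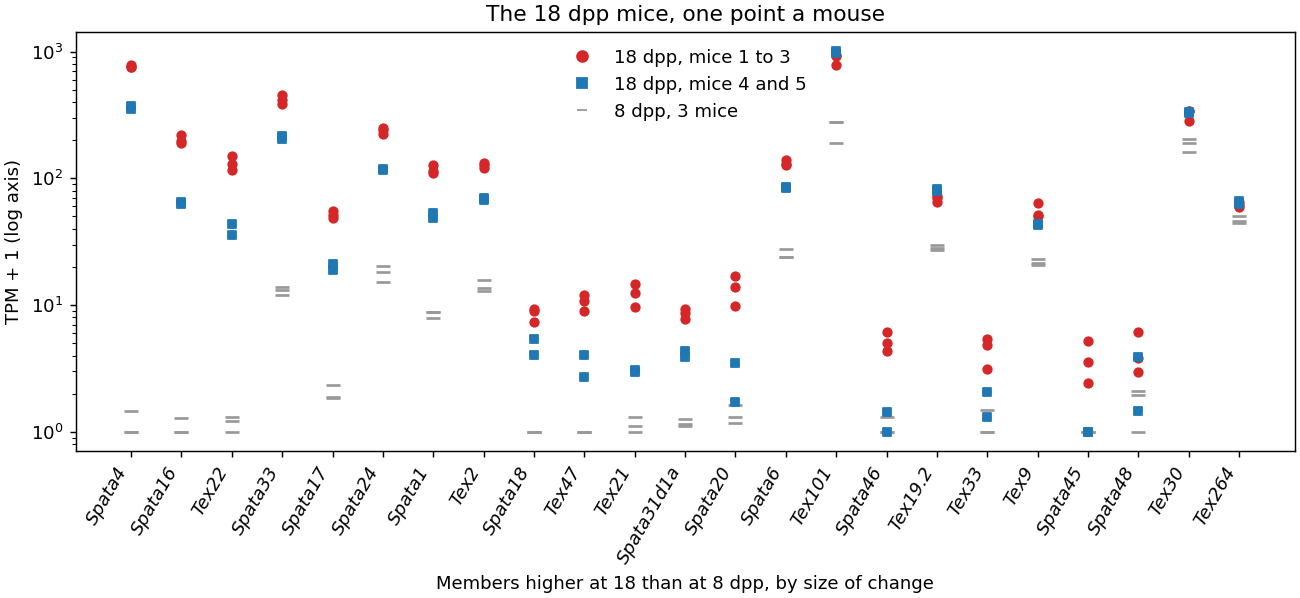
TPM + 1 (log axis) of the 23 members that were higher at 18 than at 8 dpp, 1 point a mouse, with 18 dpp mice 1 to 3 as circles, mice 4 and 5 as squares and the 3 mice of 8 dpp as dashes. The squares lie below the circles in 18 of the 23 genes and above them in Tex101 and Tex19.2.

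Of the 23 members that rose, 18 were higher in all of mice 1 to 3 than in mice 4 and 5 of the same age, and 2 were lower, Tex101 and Tex19.2. These 23 were picked by their level in the same mice, and the share among all genes that rose was not counted. Over all 39 members 22 were higher in mice 1 to 3, against 25.2% of all genes, and 6 were lower, against 32.7%. Spata20, Spata45, Spata46, Tex21, Tex33 and Tex45 reached 3 TPM in no mouse outside mice 1 to 3 of 18 dpp. Their part in these counts was thus set in part by the filter. The mean level in mice 4 and 5 was 47.5% of that in mice 1 to 3 for Spata4, 31.3% for Spata16, 29.4% for Tex22, 50.1% for Spata33 and 64.3% for Spata6. The late pachytene marker sums of these mice were lower too and their peritubular sums higher, as given above, and the part of these in the members' difference was not tested.

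Without mice 4 and 5 of 18 dpp, the median 18 against 8 dpp difference was 1.33 for the members and -0.148 for all genes. The differences were then 7.54 for Spata16, 6.81 for Tex22, 5.00 for Spata33, 4.69 for Spata17, 3.79 for Spata1, 3.74 for Spata24, 3.17 for Tex2 and 2.39 for Spata6. Those of Spata46 (2.22) and Spata45 (1.83) were over 1.5 times as large as with all mice. Both were in the table only through mice 1 to 3 of 18 dpp, so that this gain was set in part by the filter. Tex101 (1.84), Tex19.2 (1.28), Tex30 (0.79) and Tex264 (0.40) were smaller than with all mice, and Tex19.1 (-0.66), Tex13b (-0.84), Spata13 (-0.84) and Spata2 (-0.62) were further below 0. All of these kept their call. Tex45 gained one (0.74, adjusted p = 0.0155), and those of Tex10, Spata5, Spata21 and Tex261 that changed are given beside each gene. Tex45 too was in the table only through mice 1 to 3 of 18 dpp. With no overlap of the mice 26 members were higher (33% of all genes) and 7 lower (41%) than at 8 dpp. By size, 21 members were at least 1 higher (19.4% of all genes) and 1 at least 1 lower (13.9%). Members higher and lower were 10 and 3 between 10 and 12 dpp and 17 and 2 between 14 and 16 dpp. Among all genes, too, more were called at each of these steps than with all mice. The added calls were therefore not particular to the members, and the shares of all genes higher and lower were not counted here. The largest step was 16 to 18 dpp for 18 of 25 members that rose, against 66.4% of all genes that rose.

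The 5 members with known roles in germ cells were divided, with 2 higher (31.8% of all genes), 2 lower (36.3%) and 1 without a call. Tex101 encodes a membrane-anchored glycoprotein of germ cells that sperm need to mature ADAM3, and it was the member with the highest level at 8 and at 18 dpp. It stood at 279, 188 and 277 TPM at 8 dpp and 181 to 247 TPM at 10 dpp, and then at 551, 528, 625, 483 and 472 TPM at 12 dpp. The mice of 12 dpp did not overlap those of 10 dpp, and this step was 1.33 ± 0.12 (SE, adjusted p = 1.02e-08). At 18 dpp Tex101 was at 779.8, 939, 923, 979.6 and 1004 TPM, and in the adult samples at 329, 239, 303 and 235 TPM.

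Tex19.1 and Tex19.2 are neighbouring genes that arose by duplication in rodents and act in the control of retrotransposons in the germ line. Tex19.1 (chr11:121146143-121148319, plus strand) and Tex19.2 (chr11:121116215-121118677, minus strand) are separated by 27465 bases on chromosome 11. Tex19.1 was at 94.6, 89.8 and 93.5 TPM at 8 dpp and 55.1, 63, 57.2, 74.5 and 66 TPM at 18 dpp, a difference of -0.55 ± 0.10 (SE, adjusted p = 2.37e-05). Tex19.2 was at 26.3, 27.3 and 29 TPM at 8 dpp and 64.3, 68.6, 71.9, 81.4 and 78.6 TPM at 18 dpp, a difference of 1.37 ± 0.08 (SE, adjusted p = 5.3e-14). The mice of both ages overlapped for neither gene, and Tex19.1 was the more abundant of the pair in every mouse of 8 dpp and Tex19.2 in every mouse of 18 dpp. The rise of Tex19.2 fell between 10 dpp, at 31.8, 36.1, 27.5, 30.3 and 32.7 TPM, and 12 dpp, at 62.1, 62.1, 59.3, 53.8 and 63.8 TPM, and had the smallest adjusted p of any member for that step (5.42e-10, limma). In the adult samples Tex19.1 held 9.55, 8.64, 10.6 and 8.31 TPM and Tex19.2 34, 33.9, 43.7 and 37.4 TPM. As paralogs they may share reads.

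Tex15, needed for transposon methylation guided by piRNAs, was at 117, 86.6 and 112 TPM at 8 dpp and 85.7, 77.1, 72.2, 80 and 92.5 TPM at 18 dpp. The ages overlapped, and the difference of -0.36 ± 0.13 (SE, adjusted p = 0.0198) lost its call under median-of-ratios scaling (-0.18, adjusted p = 0.174) and without mouse 1 (adjusted p = 0.117) or mouse 3 (adjusted p = 0.0855) of 8 dpp. Tex14, a part of the bridges that join sister germ cells, was at 50.3, 41.4 and 48.8 TPM and 58.6, 52.3, 52.4, 47.8 and 51.7 TPM, a difference of 0.17 ± 0.09 (SE, adjusted p = 0.105) that did not pass, although with median-of-ratios scaling it did (0.34, adjusted p = 0.00175).

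**Figure D3:**
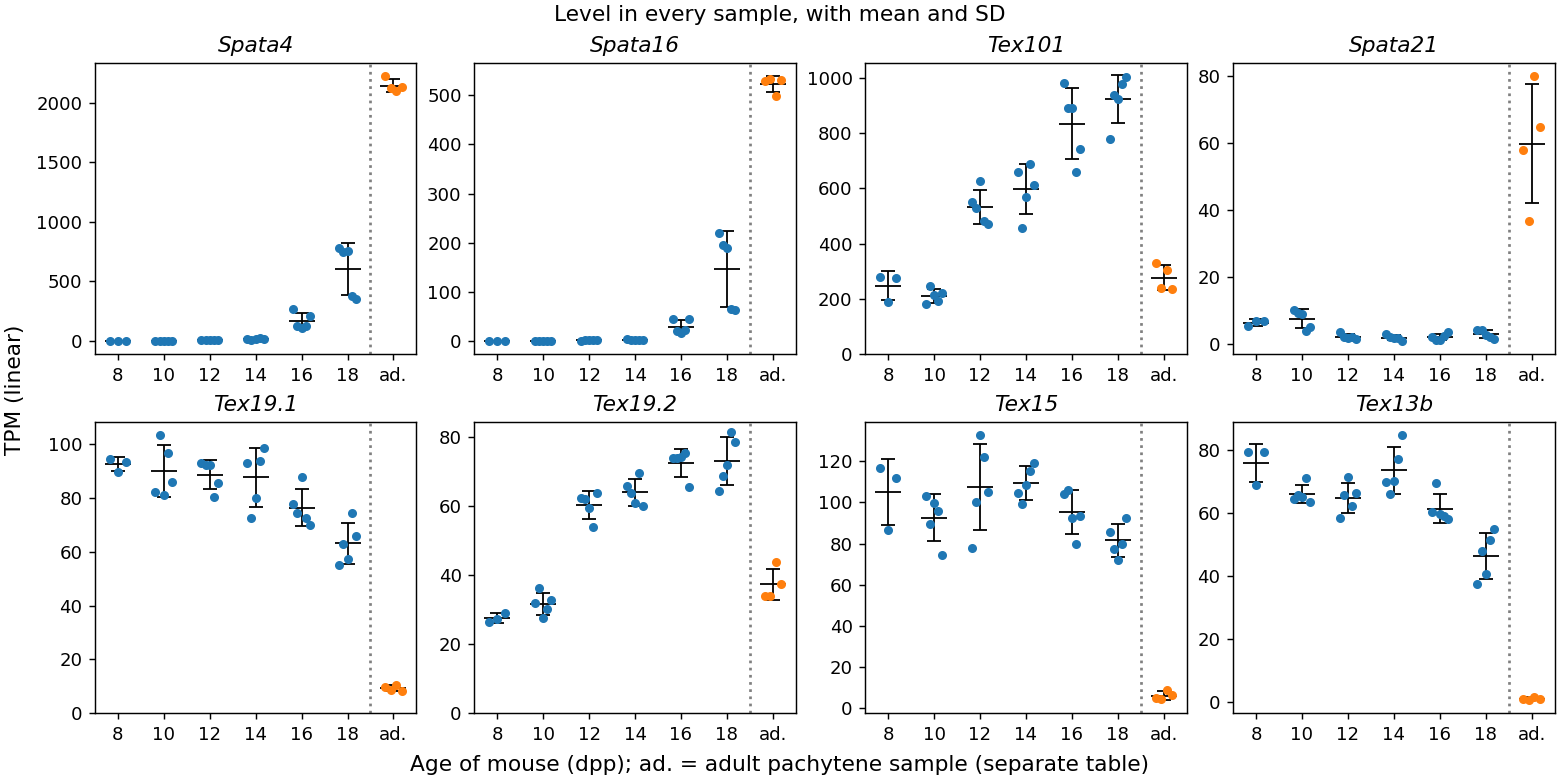
TPM (linear axes from 0 or just below) of 8 members in every juvenile mouse by age in dpp and in the 4 adult samples, which come from a separate table, with black bars for the mean and SD of each group. Spata4 and Spata16 rise to 18 dpp with a gap between mice 1 to 3 and mice 4 and 5 and are highest in adult, Tex101 and Tex19.2 step up at 12 dpp, and Tex19.1, Tex15 and Tex13b are near the axis in adult.

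Of the 9 members with roles in cells of many kinds, 4 were lower (36.3% of all genes), 2 higher (31.8%) and 3 without a call. Tex2, a lipid-transfer protein of the endoplasmic reticulum, was the exception in size, rising from 14.7, 12 and 12.6 TPM at 8 dpp to 130.5, 127, 119, 68.6 and 66.1 TPM at 18 dpp, a difference of 2.82 ± 0.18 (SE, adjusted p = 1.68e-13). Tex264, a receptor for the autophagy of the endoplasmic reticulum, rose from 43.5, 49.7 and 45.4 to 58.7, 60.9, 64, 61.2 and 64.8 TPM, a difference of 0.42 ± 0.07 (SE, adjusted p = 1.19e-05). Neither gene's mice overlapped between the ages. Spata2, which brings the deubiquitinase CYLD to the linear ubiquitin ligase, fell from 46.1, 46.1 and 46 to 31.5, 26.4, 31.1, 35 and 32.7 TPM, a difference of -0.55 ± 0.10 (SE, adjusted p = 2.02e-05). Its relative Spata2l was low throughout, at 3.11, 2.62 and 3.68 TPM and 0.69, 0.97, 0.92, 1.22 and 0.72 TPM, with the largest fall of the members, -1.12 ± 0.19 (SE, adjusted p = 7.88e-06). It was in the table only through 8 dpp, so that a fall from this age was set by the filter, and it overlaps Gm20388 and Cdk10 on the opposite strand, where reads cannot be told apart unless strand was used. The same holds for Spata1 with Ctbs, Spata2 with Rnf114, Spata5 with Nudt6, Spata25 with Zswim1, Spata46 with Nos1ap, Spata48 with Zpbp, Tex9 with Mns1 and Tex10 with Invs.

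Spata13 fell from 22.3, 22.9 and 24.3 to 12.3, 12.1, 13.1, 17.7 and 12.9 TPM, a difference of -0.74 ± 0.14 (SE, adjusted p = 2.65e-05). The ages did not overlap, and the adult level was 2.36 ± 1.11 TPM (SD, n = 4). Tex261, thought to act in export from the endoplasmic reticulum, differed by -0.15 ± 0.06 (SE, adjusted p = 0.0306), but it lost its call without mouse 2 (adjusted p = 0.0546) or mouse 3 (adjusted p = 0.186) of 8 dpp or mouse 3 (adjusted p = 0.0553) or mouse 4 (adjusted p = 0.0569) of 18 dpp, the sign turned under median-of-ratios scaling (0.020, adjusted p = 0.824) and the call was lost without mice 4 and 5 of 18 dpp (adjusted p = 0.0941). Spata5, an AAA ATPase of ribosome assembly, was at 168, 134 and 165 and 118, 135, 133, 135 and 148 TPM, a difference of -0.21 ± 0.10 (SE, adjusted p = 0.0531), which passed without mouse 2 of 8 dpp (-0.32, adjusted p = 0.011) and narrowly without any of 5 mice aged 12 to 16 dpp or mouse 5 of 18 dpp. Without mice 4 and 5 of 18 dpp the same gene passed the test (-0.27, adjusted p = 0.0293). Tex10, a ribosome-assembly and transcription cofactor, differed by 0.13 ± 0.07 (SE, adjusted p = 0.12) and passed the test without those mice (0.21, adjusted p = 0.0181). Spata7, of the connecting cilium of photoreceptors, differed by 0.02 ± 0.14 (SE, adjusted p = 0.902), with 8 dpp mice at 9.52 to 12.3 TPM and 18 dpp mice at 9.29 to 12.5 TPM.

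Both X-linked members were at substantial levels in the juvenile mice and near 0 in adult spermatocytes. Autosomal Tex15, Tex19.1 and Spata13 were also lower in adult than at 18 dpp, at means of 5.87, 9.27 and 2.36 TPM. Of X-linked genes outside the members, Tex13a was at 0 in the juvenile mice and 1.79 to 6.78 TPM in adult. Tex13c1 was at most 0.59 TPM and then 1.92 to 4.13 TPM, and Tex13c3 and Tex28 stayed at or below 0.60 TPM. Tex13b (chrX:140808307-140813433, minus strand) was at 79.5, 68.9 and 79.4 TPM at 8 dpp and 37.7, 47.9, 40.5, 51.3 and 54.9 TPM at 18 dpp, a difference of -0.71 ± 0.10 (SE, adjusted p = 4.2e-07) with no overlap. Tex16 (chrX:112011007-112127326, plus strand) was at 30.2, 22.4 and 28.1 TPM and 23, 22.9, 19.6, 21.9 and 26.5 TPM, a difference of -0.23 ± 0.13 (SE, adjusted p = 0.117) that did not pass, although it did without mouse 2 of 8 dpp (-0.35, adjusted p = 0.0338). The adult samples held 1.13, 0.86, 1.74 and 1.02 TPM of Tex13b and 0.34, 0.28, 1.85 and 0.33 TPM of Tex16. Spata21 moved the other way: it was at 5.18, 6.89 and 6.86 TPM at 8 dpp and 4.11, 4.11, 2.64, 1.86 and 1.53 TPM at 18 dpp, a difference of -0.98 ± 0.30 (SE, adjusted p = 0.0055) that lost its call without mice 4 and 5 of 18 dpp (-0.67, adjusted p = 0.0632), and at 57.7, 36.8, 79.8 and 64.8 TPM in the adult samples. Beside Tex16, the members without a given role that had no call at 18 against 8 dpp were Spata9, Spata25 and Tex45, whose highest juvenile levels were 3.72, 3.94 and 3.46 TPM.

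Step by step, all calls of members but 1 fell in 3 of the 5 intervals. Between 8 and 10 dpp no member passed (0.977% of all genes were higher and 0.226% lower); 5 did so at an unadjusted p under 0.05, where 11.5% of all genes did, and the smallest adjusted p was 0.313, for Spata2l, in limma. No member was free of overlap between these ages, where 6.2% of all genes were higher and 4.78% lower without overlap. Between 10 and 12 dpp 9 members were higher (12% of all genes) and 2 lower (9.39%). The risers were Tex101, Tex19.2, Tex264, Tex30, Tex2, Spata4, Spata33, Spata1 and Spata17, and Spata21 and Spata2 were lower. Without overlap of the mice, 10 members were higher (10% of all genes) and 1 lower (7.64%). Between 12 and 14 dpp Spata4 alone was called, with a difference of 1.42 ± 0.29 (SE, adjusted p = 0.037), against 0.157% of all genes higher and 0.0147% lower. This call was lost under 8 other settings and when any of 9 mice was left out, 8 of them of 12 or 14 dpp. Without overlap 2 members were higher (1.56% of all genes) and 0 lower (0.687%).

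Between 14 and 16 dpp 15 members were higher (12.7% of all genes) and 2 lower (11.3%). Of the 15, 5 were in the table only through 16 or 18 dpp, Tex22 and Spata16 among them. For these 5 a low level at 14 dpp was set by the filter. The largest steps were those of Tex22, 3.40 ± 0.30 (SE, adjusted p = 3.97e-09), Spata4, 3.40 ± 0.29 (SE, adjusted p = 2.29e-09), and Spata16, 3.28 ± 0.31 (SE, adjusted p = 8.73e-09). Tex13b and Tex261 were lower, though 0 members were with the replicate number as a block. Without overlap 12 members were higher (10.7% of all genes) and 0 lower (7.35%). Between 16 and 18 dpp 20 members were higher (23.4% of all genes) and 5 lower (30.6%), namely Spata13, Spata2, Tex13b, Tex16 and Tex19.1. Of the 20, 8 were in the table only through 18 dpp, so that their rise at this step was set by the filter. Without overlap 13 were higher (13.2% of all genes) and 4 lower (12.4%). With median-of-ratios scaling 2 members were lower at this step. Without mice 4 and 5 of 18 dpp 22 members were higher (25.2% of all genes) and 5 lower (35.9%). Of all genes called at this step 43.4% were higher, but 63% with median-of-ratios scaling and 37.8% with quantile normalization; between 14 and 16 dpp these shares were 53%, 66.3% and 41.6%, and between 12 and 14 dpp 91.4%, 81.2% and 83.3%. Of the 23 members higher at 18 than at 8 dpp, the largest step was 16 to 18 dpp for 14, 14 to 16 dpp for 5 and 10 to 12 dpp for 4, against 53.6%, 17.3% and 19.8% of all genes that rose. The filter set the last step for 8 of those 14, which were in the table only through 18 dpp. Tested over all 6 ages together, 36 members changed, where 77.6% of all genes did. Spata5, Spata7 and Spata25 did not pass.

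**Figure D4:**
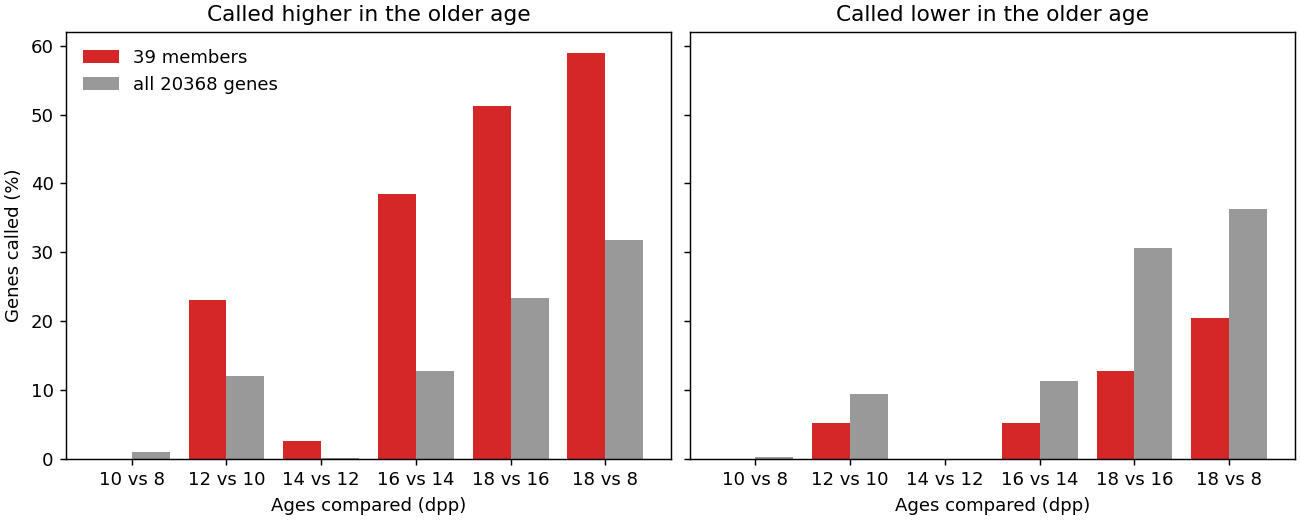
Percentage of the 39 members (red) and of all 20368 genes (grey) called higher (left) or lower (right) at the older age, limma adjusted p under 0.05, for each pair of ages in dpp, with bars from 0. Members reach 23 of 39 higher for 18 against 8 dpp, where all genes reach 31.8%, and stay below all genes among the lower calls at the last step.

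Genes known to work with members were fixed as a list of 27, of which 24 were in the table. At 18 against 8 dpp 12 were higher (31.8% of all genes) and 8 lower (36.3%), with a median difference of 0.129 against -0.0939 over all genes. Without mice 4 and 5 of 18 dpp 11 were higher (31.7% of all genes) and 9 lower (38.8%). All 3 partners of TEX101 in the table were higher: Ly6k (2.42), Dpep3 (1.99) and Adam3 (7.48). All 3 partners of SPATA33 were higher too, including the sperm calcineurin subunits Ppp3cc (1.86) and Ppp3r2 (6.70). Of the partners of SPATA2, Rbck1 (-0.81), Rnf31 (-0.51) and Cyld (-0.23) were lower and Sharpin (0.29) higher. Of the other bridge components beside TEX14, 3 of 5 were higher and 1 lower, of the transposon-silencing genes beside TEX15, 2 of 4 were higher and 1 lower, and of the TEX10 complex, 2 of 4 were lower. Ubr2, the ubiquitin ligase bound by TEX19.1, was lower (-0.68).

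The adult samples were set beside the 18 dpp mice without a test, since the tables were made separately. In 24 members all 4 adult samples were above all 5 mice of 18 dpp, in 11 they were below, and in 4 they overlapped. Of the 20366 genes that both tables hold, 22.3% were above and 53.4% below without overlap. Against mice 1 to 3 of 18 dpp alone, 25 members were above (22.9% of all genes) and 12 below (55.4%). Of the 23 members that rose, 18 were higher in adult, Tex101, Tex19.2, Tex264 and Tex30 were lower, and Tex9 overlapped. The share among all genes that rose was not counted here. Members at 3 TPM or more in every sample numbered 22 at 8 dpp, 26 at 18 dpp and 35 in adult. The members' TPM summed to 1338 ± 129 at 8 dpp (SD, n = 3), 3789 ± 582 at 18 dpp (SD, n = 5) and 6895 ± 182 in adult (SD, n = 4), and Spata4 alone made up 2146 ± 54.9 TPM (SD, n = 4) of the adult sum. By level, the adult order was led by Spata4, Spata33, Spata24, Spata16 and Tex22, of which Spata24 and Spata16 were close, at 533 to 567 and 499.5 to 533 TPM.

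**Figure D5:**
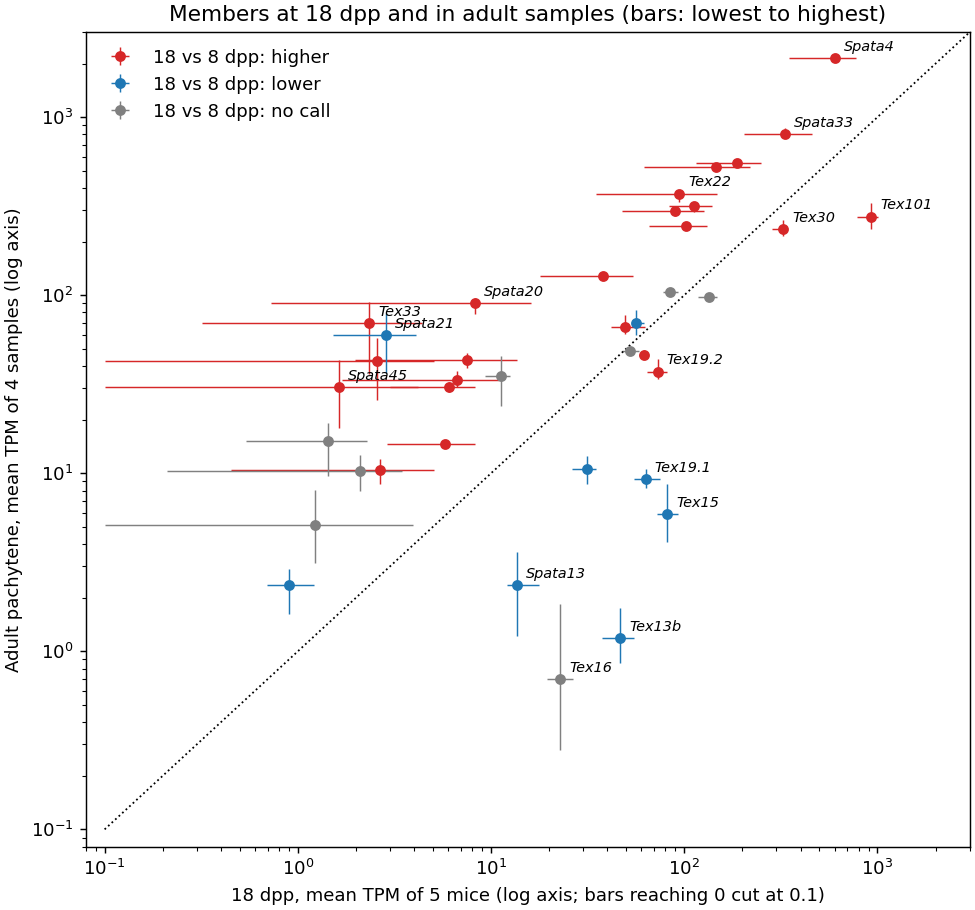
Mean TPM of each member in the 5 mice of 18 dpp (x) and the 4 adult pachytene samples (y), both on log axes, with bars from the lowest to the highest sample (bars that reach 0 are cut at 0.1), coloured by the 18 against 8 dpp call, and a dotted line of equal level. Most red points lie above the line, while Tex15, Tex19.1, Spata13, Tex13b and Tex16 lie far below it and Spata21 far above.

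A further 25 protein-coding Tex and Spata genes had no row in the juvenile gene table, and 24 of them were in the transcript table. Their highest summed juvenile value was 2.51 TPM, for Tex38. In the adult samples 15 of the 24 were at 3 TPM or more in all 4, led by Spata19 at 50.3 ± 7.56 TPM, Tex36 at 31.6 ± 6.45 TPM and Tex48 at 24.3 ± 4.80 TPM (SD, n = 4). The spermatid markers summed to 862 to 1166 TPM in those samples and at or below 7.19 TPM in every juvenile mouse, and their part in these levels was not tested.

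Transcript usage, the percentage of a gene's TPM given by each of its transcripts, was compared between the 10 mice of 16 or 18 dpp and the 8 mice of 8 or 10 dpp. It could be tested for 63 transcripts of 17 members. At a change of at least 20 percentage points and adjusted p under 0.05 in limma, 0 were called, against 2.12% of all 26367 transcripts tested. At any size, 10 transcripts of 5 members had an adjusted p under 0.05, against 13.1% of all transcripts tested, the largest changes being within Tex30 and Spata1. One Tex30 transcript, ENSMUST00000150911, went from 32.5% to 45.3% of the gene's TPM, a change of 12.8 ± 2.11 points (SE, adjusted p = 0.000537), and ENSMUST00000027215 from 18.2% to 5.96%, a change of -12.2 ± 3.09 points (SE, adjusted p = 0.0131). The main transcript of Spata1 went from 82.4% to 94.9%, a change of 12.5 ± 2.26 points (SE, adjusted p = 0.0012).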

How the data were processed

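Per the labels and the study's methods, the authors aligned the reads with Bowtie 1.0.0 (mm10), computed TPM with RSEM 1.2.8, and deposited a juvenile gene table, a juvenile transcript table and an adult gene table. The strand setting of the counting is not given in the sources used here. The transcript and adult tables hold TPM. The juvenile gene table was taken for TPM when the design was fixed but holds a score, exp(log2(TPM + 1)) - 1 in the deposited file, and was converted back. Members then differed by at most 0.03 TPM from their summed transcripts. The authors' column of substage assignments was not used, and 0 columns of sample values were left out. Groups came from the labels, 1 mouse a sample (6 pooled in adult).

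Levels were tested with limma 3.58.1 in R 4.3.3 as log2(TPM + 1), pseudocount 1, all 6 ages in 1 model with a prior variance trend, and adjusted over 20368 genes. On simulated data for 18 against 8 dpp (20368 genes, 200 changed), 76.5% of changes of 1 on the log2 scale and 35% of changes of 0.5 were recovered. Of 15025 Ensembl genes, 14896 matched GENCODE M21. The members and lists were chosen with earlier results of these data known. Named were the 10 largest rises, 6 largest falls, 8 highest members at 18 dpp and in adult, all with a given role and all X-linked ones, 31 in all. Others named, and the motifs and promoters shown, were chosen after their values were seen. Alternatives were other pseudocounts, filters, scalings, fits and left-out mice.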

Additional observations from a re-analysis of the deposited data

Results flagged for a closer look

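In 14 of 186 groups of 4 or 5 samples tested over the 31 named genes, 1 sample lay far from the rest, where chance alone gives about 5% of groups. At 18 dpp, mouse 4 was highest for Spata13 at 17.7 TPM (next 13.1), mouse 1 was highest for Tex261 at 62.1 TPM (next 55.5) and lowest for Tex30 at 284 TPM (next 329). At 16 dpp, mouse 2 was highest for Tex13b at 69.5 TPM (next 60.5), mouse 5 lowest for Tex19.2 at 65.4 TPM (next 73.8) and mouse 3 highest for Tex33 at 0.93 TPM (next 0.25). At 12 dpp, mouse 1 was highest for Spata21 at 3.59 TPM and for Tex47 at 0.24 TPM (others at or below 2.00 and at 0), and mouse 3 was highest for Spata4 at 10.04 TPM (next 4.94). Tex47 was at 0.28 TPM in mouse 6 of 14 dpp (next 0.08) and Tex22 at 0.27 TPM in mouse 1 of 10 dpp (others 0). Among the adult samples, number 3 was lowest for Spata16 at 500 TPM (next 529) and highest for Tex16 at 1.85 TPM (next 0.34), and number 2 was lowest for Spata24 at 533 TPM (next 562).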

How the results depend on the processing

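The single call between 12 and 14 dpp, Spata4, was 0 calls with a pseudocount of 0.1, without the filter, with median-of-ratios factors, with quantile normalization, without the variance trend, with mice 1 to 3 only, with the replicate block and with only those 2 ages. Members lower between 10 and 12 dpp numbered 1 without the filter, without the trend, with the replicate block and with 2 ages, and 4 with mice 1 to 3 only. Between 14 and 16 dpp they numbered 1 without the filter, with median-of-ratios factors and with mice 1 to 3 only, and 0 with the replicate block. Between 16 and 18 dpp they numbered 2 with median-of-ratios factors and 8 with quantile normalization. Partner genes lower at 18 than at 8 dpp numbered 5 with median-of-ratios factors. Member transcripts with changed usage numbered 4 at a minimum of 10 points, by construction. Tex261 reversed to 0.020 with median-of-ratios factors. The other causes were not tested.

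Median-of-ratios factors moved the median 18 against 8 dpp difference of all genes from -0.0939 to 0.0492 and that of the members from 1.10 to 1.2, and quantile normalization moved them to -0.264 and 0.923. With a pseudocount of 0.1 the members' median was 1.92, and with 3 TPM required in 3 mice 1.38 (all genes -0.114 in both). Over the 31 named genes and these settings, 323 values kept direction and side of the threshold, 7 lost the call, 8 gained it and 1 reversed. Leaving out single mice, 854 kept both, 6 lost and 8 gained the call. Without 1 mouse, members higher and lower at 18 against 8 dpp were 22 to 24 and 6 to 9, at 12 against 10 dpp 7 to 11 and 1 to 2, at 14 against 12 dpp 0 to 1 and 0, at 16 against 14 dpp 13 to 16 and 0 to 3, and at 18 against 16 dpp 18 to 21 and 5. The 12 to 14 dpp call was lost without mouse 2 of 10 dpp, any mouse of 12 dpp but 3, or any of 14 dpp but 2. Single lower calls were lost between 10 and 12 dpp without mouse 1, 2 or 3 of 10 dpp or 1, 4 or 5 of 12 dpp, and between 14 and 16 dpp without mouse 1 or 6 of 14 dpp, and both without mouse 7 of 14 dpp or 1, 4 or 5 of 16 dpp. Partner genes were 10 to 12 and 6 to 9, and members changed at any age 33 to 36. The setting without mice 4 and 5 of 18 dpp was chosen after seeing the data. Replicate numbers do not pair the mice: over 57 same-numbered pairs of different ages, correlations of deviations ran from -0.287 to 0.313 (median 0.0319), and 5 of 28 mice were closest to their own number. The block changed no call of a named gene at 18 against 8 dpp other than that of Tex261 (adjusted p = 0.072). The depth is unknown, and no test joins the adult and juvenile tables.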
